A study of Mus musculus with 4 samples.

Results

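The cells described here were activated muscle stem cells of the extraocular muscles (EOM), divided by their level of Cdkn1c messenger RNA. All came from the activated EOM library, and a barcode was used if it had 10000 or more unique molecular identifiers (UMIs, each standing for 1 captured RNA molecule), of which mitochondrially encoded genes gave at most 10%. Of the library's 7597 barcodes, 5643 met both limits; 1792 had fewer UMIs and a further 162 exceeded the mitochondrial limit alone. A cell was called Cdkn1c-high with 5 or more Cdkn1c UMIs per 10000 UMIs, which gave 1324 cells, and Cdkn1c-free with 0 Cdkn1c UMIs, which gave 2102 cells. The 2217 cells with a level in between were left out of the main comparison. The series held 23170 barcodes in 4 libraries.

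The muscle stem cells were sorted by their green fluorescence from mice carrying the Tg:Pax7-nGFP transgene, which marks Pax7-expressing nuclei, at 2 to 4 months of age. EOM move the eyeball, and the tibialis anterior (TA) is a muscle of the lower hind limb. Activated cells of both muscles had been cultured for 4 days on Matrigel at 3% oxygen, and quiescent cells of both muscles formed the other two libraries. There was 1 library for each muscle and state, and how many animals each one pooled is not given in the sources used here. Cells of 1 library are not replicates, so no test was made, and every interval below is an exact 95% interval for counting error only.

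Cdkn1c encodes p57Kip2, a cyclin-dependent kinase (CDK) inhibitor of the Cip/Kip family whose relatives are p21, encoded by Cdkn1a, and p27, encoded by Cdkn1b. It is an imprinted gene expressed from the maternal allele, and with p21 it is known for its part in the cell cycle exit of differentiating myoblasts. After activation, muscle stem cells divide as myoblasts that express Pax7, Myf5 and Myod1, then switch on Myog, leave the cell cycle, fuse and build sarcomeres. In the GRCm38 annotation, Cdkn1c lies on the minus strand of chromosome 7, from 143458339 to 143461050.

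Both sets were muscle cells by their markers. The median depth was 20498.5 UMIs in Cdkn1c-high and 22540 in Cdkn1c-free cells, with 3986.5 and 4409.5 detected genes and 6.68% and 6.06% mitochondrial UMIs. Of the 3426 cells, 4 had a barcode that also occurred in the activated TA library, 4 one of quiescent EOM and 2 one of quiescent TA. Summed levels, in CPM (UMIs of a gene scaled to the same total in each set), were 7.31 and 8.62 for 9 endothelial markers in Cdkn1c-high and Cdkn1c-free cells, 0.909 and 1.06 for 8 immune markers, 5.39 and 4.98 for 6 Schwann or glial markers, and under 4 for the red blood cell, adipocyte and epithelial lists in both sets. The fibroblast list of 8 markers summed to 46.0 and 91.3 CPM, almost all from Col3a1 and Col1a1; Lum and Pi16 had 0 UMIs and Pdgfra had 2 and 6. The endothelial gene Tie1 and the immune gene Ptprc had 0 UMIs in both sets. The mural list of 9 markers summed to 3546 and 1656 CPM. Acta2, a smooth muscle actin that myoblasts also express, gave 3340 and 1381 CPM of this. Other mural markers were present too, with Tagln at 185 and 192 CPM, Pdgfrb at 7.14 and 41.4 CPM and Notch3 at 9.16 and 38.3 CPM. Rgs5 had 0 and 22 UMIs and Myh11 had 0 and 1. In the tenocyte list of 5, with 168 and 55.6 CPM in sum, Scx gave 167 and 53.3, and Tnmd had 0 UMIs in both. A count of 0 UMIs allows a level of up to 0.101 CPM in Cdkn1c-high and 0.0600 CPM in Cdkn1c-free cells, from 3 counts of each set's total. With no cell type at hand that should lack muscle RNA, the free RNA in the droplets could not be measured, and its part in the shares of cells below was not tested.

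Cdkn1c was spread over a wide range within the activated EOM library. The Cdkn1c-high cells, which were chosen on this value, had a lowest level of 5.03, a median of 14.1 and a highest level of 85.6 UMIs per 10000. They made up 23.5% of the 5643 cells (95% interval 22.4 to 24.6), and Cdkn1c-free cells 37.2%. By the same limits 51 of 4295 activated TA cells were Cdkn1c-high, or 1.19% (0.885 to 1.56), and 74.6% were Cdkn1c-free. The Cdkn1c level summed over these cells was 445 CPM in activated EOM and 32.0 CPM in activated TA. In the quiescent libraries only 58 EOM and 82 TA cells met both the depth and the mitochondrial limit, of which 1 and 4 were Cdkn1c-high. The threshold lies within a continuous range: 133 cells had 4 to 5 and 95 cells had 5 to 6 UMIs per 10000. Just outside and just inside it, Myog stood at 2720 and 2946 CPM, Cdkn1a at 599 and 656 CPM, and Tnnt2 at 373 and 525 CPM. Pax7 stood at 50.1 and 43.6 CPM. Ccnd1, at 76.8 and 87.2 CPM, and Mgp, at 111 and 163 CPM, ran against their direction in the main comparison.

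**Figure D1:**
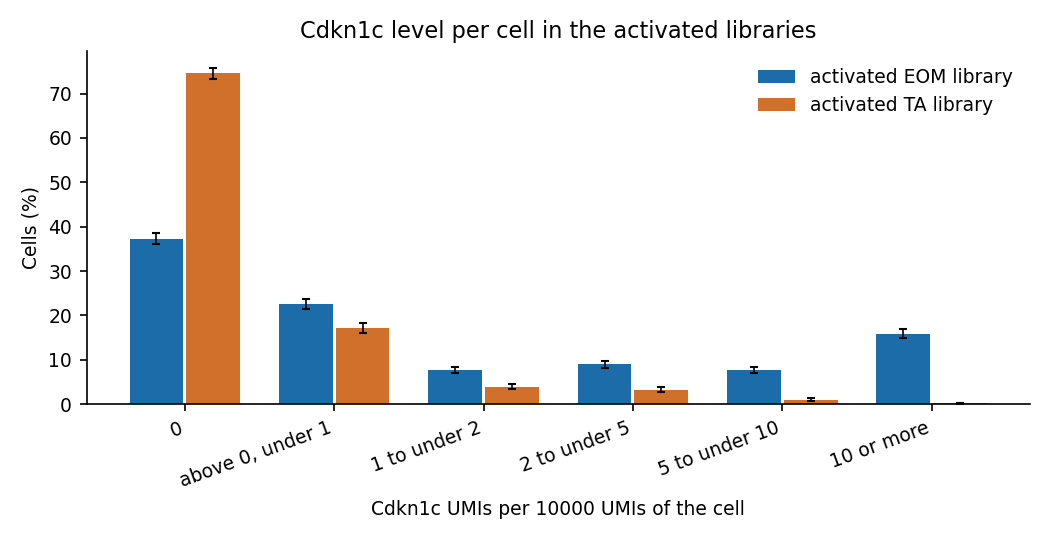
Share of cells (%, y axis) in 6 bands of Cdkn1c level (UMIs per 10000 UMIs of the cell, x axis) in the activated EOM (blue) and activated TA (orange) libraries, with exact binomial 95% intervals as error bars. In activated EOM 894 cells lie at 10 or more per 10000, while 74.6% of activated TA cells lie at 0.

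In Cdkn1c-high cells genes of differentiation, fusion and the sarcomere were higher, together with Cdkn1a and Rb1, and many genes of G1 and S phase, the stem cell state and the matrix were lower than in Cdkn1c-free cells. A set level of 20 CPM in one of the sets was reached by 5522 genes, not counting Cdkn1c. Of these, 379 (6.86%) stood 2-fold or more above in Cdkn1c-high cells and 408 (7.39%) 2-fold or more below. The counts given for each list below are to be read beside these shares. The median log2 ratio over 9018 genes with at least 5 CPM in either set was -0.13 (log2 of CPM plus a pseudocount of 1 CPM, as for every log2 ratio below), and the median given for a list is the same quantity over its members. Trimmed-mean (TMM) scaling raised all ratios by 0.11 on the log2 scale and changed the split to 437 higher and 313 lower, or 58.3% higher against 48.2%; median-of-ratios scaling gave 439 and 312.

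Myog, the factor that commits myoblasts to differentiate, was far higher in Cdkn1c-high cells. Per cell, Myog had a lowest value of 0, a median of 41.6 and a highest of 104 UMIs per 10000 in Cdkn1c-high cells, and of 0, 0.646 and 81.3 in Cdkn1c-free cells. The cells between the quartiles were apart, with quartiles of 27.7 and 52.6 against 0.284 and 1.74, but the full ranges overlapped. The summed level was 3796 against 412 CPM, a 9.21-fold ratio (interval 9.07 to 9.35). Mef2c, which acts with Myog on muscle genes, was at 145 and 11.4 CPM (12.7-fold), Mef2a at 291 and 75.4 CPM and Mef2d at 51.1 and 17.5 CPM. Myod1, the determination factor that is active before and during differentiation, was at 1142 and 392 CPM (2.91-fold), with per-cell medians of 11.4 and 1.53 UMIs per 10000. Myf5, the early myoblast factor, was lower, at 14.6 against 74.0 CPM. Id3, an inhibitor of the myogenic factors' partners, was at 608 and 1345 CPM, and its per-cell medians were 4.94 and 12.8. Of 17 myogenic regulators with 20 CPM or above, 5 were 2-fold or more higher and 3 lower, with a list median of 0.067 over 22 members.

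The genes that fuse myoblasts were higher as well. Mymk, which encodes the fusion protein myomaker, was at 429 against 48.0 CPM, and Mymx, which encodes its partner myomixer, at 599.9 against 52.1 CPM (11.5-fold). In single cells Mymx had a median of 5.91 and a highest value of 26.5 UMIs per 10000 in Cdkn1c-high cells, and of 0 and 21.8 in Cdkn1c-free cells; the lowest value was 0 in both. Jam3, an adhesion molecule, was at 313 and 86.1 CPM. Of 10 fusion genes that reached 20 CPM, 5 were 2-fold or more higher and 0 lower (median 0.68), beside 6.86% and 7.39% of all counted genes. The tetraspanin Cd9 was at 82.9 against 138 CPM, and Itga3 was at 9.03 against 16.9 CPM.

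Sarcomere and contraction genes had the largest ratios of the 18 lists. Of 34 members that reached 20 CPM, 31 were 2-fold or more higher and 0 lower; the median over 41 members was 2.69, against -0.13 for all genes. Tnnt2, a troponin T of embryonic muscle and heart, had a lowest value of 0, a median of 5.53 and a highest of 52.1 UMIs per 10000 in Cdkn1c-high cells, and of 0, 0 and 27.9 in Cdkn1c-free cells. Its summed level was 730.4 against 41.6 CPM (17.6-fold, 16.8 to 18.4). Cardiac actin Actc1, also used by embryonic skeletal muscle, was at 3002 and 183 CPM, with per-cell medians of 24.6 and 0.410. Embryonic myosin Myh3 was at 689 and 57.0 CPM, perinatal Myh8 at 49.5 and 2.52 CPM, and the myosin light chain Myl1 at 504 and 30.5 CPM. Giant titin, from Ttn, was at 2460 and 662 CPM and was detected in 99.6% of Cdkn1c-high and 88.0% of Cdkn1c-free cells thinned to 10000 UMIs. The 3 members under 2-fold were Des, at 833 and 648 CPM, Chrna1, at 1126 and 655 CPM, and Tpm1, at 2061 and 1239 CPM. The actin and myosin genes have near-identical coding sequences, and how the authors' counting divided such reads is not given in the sources used here. Chaperones of sarcomere assembly, Unc45b (51.8 against 3.52 CPM) and Klhl41 (103 against 7.52 CPM), and the metabolic hormone gene Fgf21 (61.8 against 5.00 CPM) were also among the 15 largest ratios.

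Myogenic factors bind E-boxes, and the form CAGCTG is one they are known to bind in muscle genes. The promoters of Tnnt2 and Myl1 are shown because these genes had 2 of the 3 largest folds among those with at least 50 CPM and their upstream stretch holds this motif. Both are the 250 bases before a RefSeq gene start (GRCm38.p6), read 5′ to 3′ on the gene's strand, with CAGCTG in capitals: chr1:135836084-135836333, plus strand, for Tnnt2 and chr1:66945057-66945306, minus strand, for Myl1.
Tnnt2: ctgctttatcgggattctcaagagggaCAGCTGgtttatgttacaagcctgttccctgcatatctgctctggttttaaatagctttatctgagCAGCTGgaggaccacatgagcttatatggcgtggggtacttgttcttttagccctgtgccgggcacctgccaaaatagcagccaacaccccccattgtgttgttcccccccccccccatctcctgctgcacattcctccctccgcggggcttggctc
Myl1: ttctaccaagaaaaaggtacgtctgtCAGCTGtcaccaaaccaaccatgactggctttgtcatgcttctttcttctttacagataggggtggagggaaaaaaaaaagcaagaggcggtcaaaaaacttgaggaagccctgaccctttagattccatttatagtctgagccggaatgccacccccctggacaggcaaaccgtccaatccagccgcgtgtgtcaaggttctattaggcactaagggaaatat
CAGCTG reads the same on both strands and is 1 form of the wider motif CANNTG. It was found in 21.7% of 428 upstream stretches of the genes at least 2-fold higher in Cdkn1c-high cells (287 of 379 genes matched), in 12.1% of 380 stretches of the genes at least 2-fold lower (305 of 408 matched), in 10.9% of 5580 stretches of genes with at least 20 CPM and in 13.0% of all 32851 stretches. For CANNTG these shares were 69.2%, 48.4%, 53.8% and 66.2%. The stretches of Myog, Actc1, Cdkn1a, Mef2c and Meg3 hold 0 matches to CAGCTG, as does the second Tnnt2 start.

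Of the CDK inhibitors and pocket proteins, Cdkn1a and Rb1 were higher in Cdkn1c-high cells. Cdkn1a, which encodes p21, had a lowest value of 0, a median of 7.80 and a highest of 39.1 UMIs per 10000 in Cdkn1c-high cells and of 0, 0.328 and 48.7 in Cdkn1c-free cells. The medians were far apart while the highest single value was in a Cdkn1c-free cell. Summed, Cdkn1a was at 842 and 110.0 CPM, a 7.65-fold ratio (7.43 to 7.88). Rb1, the retinoblastoma protein that holds E2F factors, was at 75.9 and 14.4 CPM (5.28-fold, 4.85 to 5.75). Cdkn1b, the third Cip/Kip gene, was at 24.6 and 30.1 CPM. The INK4 genes Cdkn2c and Cdkn2d were at 23.8 and 33.4 CPM and at 68.7 and 59.8 CPM. Of the 5 members that reached 20 CPM, 2 were 2-fold or more higher and 0 lower, beside 6.86% and 7.39% of all counted genes.

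The D-type cyclins did not share one pattern. Ccnd1 was at 53.8 against 231 CPM and Ccnd2 at 33.6 against 159 CPM, folds of 0.233 (0.221 to 0.245) and 0.212 (0.198 to 0.226). Ccnd1 had a median of 0 and a highest value of 6.37 UMIs per 10000 in Cdkn1c-high cells and of 1.73 and 10.5 in Cdkn1c-free cells; the lowest was 0 in both. Ccnd3, the D cyclin that differentiating muscle is known to keep, was at 382 and 419 CPM, with per-cell medians of 3.69 and 4.10. Their partner kinase Cdk6 was at 10.2 and 54.5 CPM and Cdk4 at 356 and 461 CPM. Myc was at 3.94 and 22.0 CPM, and the E-type cyclins Ccne1 and Ccne2 were at 30.7 and 66.7 CPM and at 10.9 and 27.7 CPM. E2f2 was the 1 member at least 2-fold higher (30.8 against 11.6 CPM). Of 13 G1 cyclins and kinases with 20 CPM or above, 8 were at least 2-fold lower, with a median of -1.10.

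Genes of DNA replication differed more between the sets than genes of mitosis did. Of 32 S phase genes that reached 20 CPM, 21 were 2-fold or more lower and 0 higher (median -1.13 over 33). The licensing factor Cdt1 was at 10.1 and 44.2 CPM, Cdc6 at 6.97 and 29.3 CPM and Mcm10 at 5.996 and 24.2 CPM, whereas the ribonucleotide reductase subunit Rrm2 was at 282 and 466 CPM. Of 38 G2 and M phase genes, 3 were at least 2-fold lower (Ttk, Aurkb and Hjurp) and 0 higher (median -0.55 over 40). The lower share is near the 7.39% over all counted genes. The mitotic ubiquitin enzyme Ube2c was at 487 and 429 CPM, with per-cell medians of 3.89 and 3.21 UMIs per 10000, and cyclin Ccnb2 was at 135 and 125 CPM. The summed level per cell of the S phase list had medians of 15.6 and 35.5 UMIs per 10000, with quartiles of 8.31 and 24.4 against 28.8 and 42.2. For the G2 and M phase list the medians were 30.1 and 48.7, and the quartiles, 9.27 and 60.6 against 34.1 and 68.4, overlapped widely.

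Both kinds of marker, differentiation and proliferation genes, were found in many cells of each set, where 1 UMI counted as found. Such a share can rest on low levels, as Myog had a median of 0.646 UMIs per 10000 in Cdkn1c-free cells. The part of free RNA in these shares was not tested, and barcodes holding 2 cells were not removed. After each cell had been thinned to 10000 UMIs, Myog, Mymk or Mymx was found in 98.2% of Cdkn1c-high cells (97.3 to 98.8), 73.6% of cells in between and 62.5% of Cdkn1c-free cells (60.4 to 64.5); without thinning the shares were 99.2%, 89.1% and 83.7%. The proliferation genes Mki67 or Top2a were found in 56.9% (54.2 to 59.6), 85.1% and 91.7% (90.5 to 92.9) of these cells, and without thinning in 69.7%, 90.8% and 95.6%. Cells with both kinds made up 55.2% of the Cdkn1c-high and 56.3% of the Cdkn1c-free set. Cells with a differentiation gene alone made up 43.0% and 6.18%, and cells with a proliferation gene alone 1.66% and 35.4%. Seen from the other side, 57.2% of the 994 cells with a differentiation gene alone were Cdkn1c-high (54.1 to 60.3), 22.5% of the 3251 cells with both kinds and 1.67% of the 1317 cells with a proliferation gene alone.

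Pax7 and many genes of quiescence were lower in Cdkn1c-high cells. Pax7, the transcription factor of muscle stem cells, was at 22.3 against 99.9 CPM, a fold of 0.223 (0.206 to 0.242), and was detected in 13.0% of thinned Cdkn1c-high and 55.0% of thinned Cdkn1c-free cells. Its median was 0 and its highest value 5.61 UMIs per 10000 in the first set, against 0.824 and 6.77 in the second; the lowest was 0 in both. The EGFP transcript of the Pax7 reporter was found in 6.12% and 20.2% of thinned cells. The membrane protein Cav1 was at 26.4 and 111 CPM. Of 28 quiescence genes that reached 20 CPM, 14 were 2-fold or more lower and 0 higher, with a median of -0.63. The growth arrest gene Btg2 was at 22.5 and 13.4 CPM.

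In the Notch pathway, by which neighbouring cells hold each other undifferentiated, a ligand was higher and the targets lower. The ligand gene Dll1 was at 40.7 against 9.10 CPM (4.47-fold, 4.01 to 4.99), and was found in 33.1% and 8.28% of thinned cells. The Notch targets Hes1, Hey1 and Heyl were at 15.2 and 63.0 CPM, 7.81 and 30.5 CPM, and 8.42 and 34.5 CPM. The receptor Notch3 was at 9.16 and 38.3 CPM and Notch1 at 24.7 and 35.7 CPM. Hes6, which differentiating myoblasts express and which opposes Hes1, was at 833 and 270.4 CPM. Rbpj, another member, was at 114 and 57.6 CPM (1.97-fold). Of the 8 members that reached 20 CPM, 2 reached 2-fold higher and 4 lower, beside 6.86% and 7.39% of all counted genes.

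Among matrix genes, more were 2-fold lower than 2-fold higher in Cdkn1c-high cells. The shares over all counted genes were 7.39% lower and 6.86% higher. Of 10 collagen genes that reached 20 CPM, 5 were 2-fold or more lower and 0 higher, with a median of -1.53 over 15. Col1a2 was at 329 and 621 CPM and Col8a1 at 15.5 and 60.3 CPM; the Col1a2 medians were 2.37 and 5.48 UMIs per 10000, with highest values of 25.4 and 30.5. Of 22 glycoproteins and proteoglycans, 13 were at least 2-fold lower and 1 higher (median -0.73). Mgp, an inhibitor of calcification, was at 71.7 and 346 CPM, a fold of 0.207 (0.198 to 0.217). It was unevenly held in both sets, with medians of 0 and 0.968 and highest values of 30.6 and 40.2 UMIs per 10000. Osteopontin, from Spp1, was at 59.0 and 276 CPM. The proteoglycan gene Ogn was the 1 higher member, at 55.4 and 19.02 CPM (2.92-fold, 2.69 to 3.16). Sparc, a collagen-binding glycoprotein, was at 787 and 940.4 CPM. Of 15 matrix enzymes and inhibitors, 7 were at least 2-fold lower and 1 higher; the higher one was the protease gene Adam19, at 36.8 and 17.8 CPM. Members of these lists with ratios between 1 and 2 included Emilin1 (1.37-fold), Npnt (1.15-fold) and Adamts5 (1.54-fold).

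Imprinted genes other than Cdkn1c were mostly level between the sets. Of 17 with 20 CPM or above, 2 were 2-fold or more higher and 0 lower (median 0.20), beside 6.86% higher and 7.39% lower over all counted genes. Meg3, a maternally expressed long non-coding RNA, was at 235 and 75.9 CPM (3.10-fold, 2.98 to 3.22), and Zdbf2 at 33.5 and 9.52 CPM. Meg3 was found in 35.0% and 29.2% of thinned cells, with a median of 0 in both sets and highest values of 52.5 and 41.7 UMIs per 10000. Kcnq1ot1, the paternally expressed antisense RNA of the imprinted domain that contains Cdkn1c, was at 410.0 and 205 CPM (2.00-fold, 1.95 to 2.05), with per-cell medians of 3.34 and 1.67. It is antisense to Kcnq1, and whether the authors' counting used strand is not given in the sources used here. H19 was at 1461 and 1336 CPM and Peg3 at 867 and 779 CPM.

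Among the other lists, 6 of 17 IGF and growth factor genes were at least 2-fold lower and 2 higher. Over all 5522 counted genes, 7.39% were lower and 6.86% higher by that limit. Igf1, a growth factor of differentiating muscle, was at 22.1 and 3.32 CPM, and the receptor genes Met and Pdgfrb were at 27.1 and 75.3 CPM and at 7.14 and 41.4 CPM. Of 18 immediate early and heat shock genes, 8 were 2-fold or more lower and 0 higher; Ier2 was at 12.9 and 56.3 CPM and the small heat shock gene Hspb1 at 919 and 486 CPM. Among 8 p53 targets 1 was at least 2-fold lower, Phlda3, at 81.6 and 165 CPM, and Mdm2 was at 67.2 and 44.7 CPM. Of 5 head and eye muscle regulators, Prrx1 alone passed 2-fold, at 38.7 and 126 CPM. In lists this short, 1 member past the limit says little beside the share over all genes. Among the smallest ratios were those of the water channel gene Aqp5 (8.83 and 63.4 CPM), Tm4sf1 (12.0 and 83.5 CPM) and the protease gene Prss23 (28.3 and 179 CPM).

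Across the whole range of Cdkn1c, the lists changed gradually. The 1275 cells above 0 and under 1 UMI per 10000 were close to the Cdkn1c-free cells, with Myog at 627 and 412 CPM, Ccnd1 at 215 and 231 CPM and Pax7 at 96.8 and 99.9 CPM. The summed sarcomere and contraction list was at 6377 CPM in Cdkn1c-free cells, 7765 CPM in that lowest band, 14701 CPM at 1 to under 2, 17728 CPM at 2 to under 5, 23969 CPM at 5 to under 10 and 28900 CPM at 10 or more (the 894 cells of the top band). The S phase list went from 3507 CPM at 0 to 1696 CPM in the top band, and collagens from 1266 to 599 CPM. The G2 and M phase list was highest in the band above 0 and under 1, at 6048 CPM, and stood at 5511 CPM at 0 and 4004 CPM in the top band. Cdkn1a followed the same order as Myog, with 110.0, 170.0, 349.5, 509, 730.0 and 899.9 CPM from the lowest to the highest band. Mgp had 346, 372, 325.5, 192, 128 and 42.6 CPM, so that its levels stood apart only from the fourth band on.

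**Figure D2:**
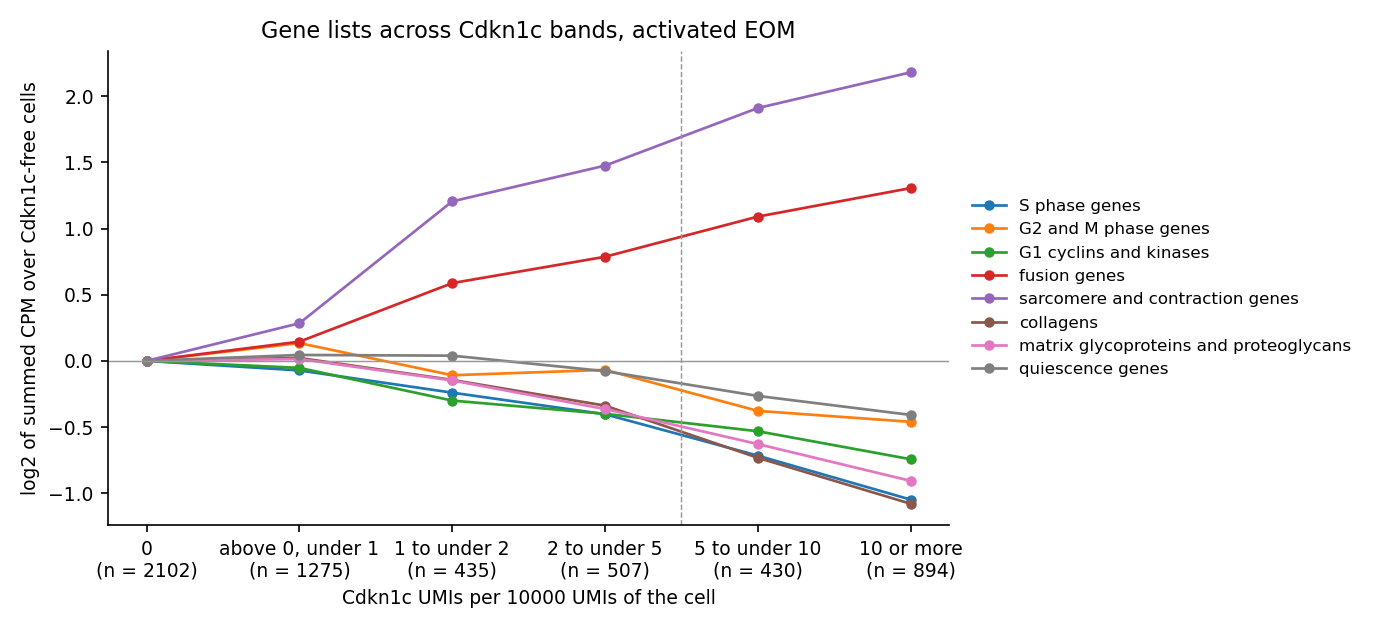
Summed level of 8 gene lists (y axis, log2 of CPM over the Cdkn1c-free cells) in 6 bands of Cdkn1c (x axis, UMIs per 10000 UMIs of the cell; n is the number of cells) in activated EOM; the dashed line marks the limit of 5 per 10000. Sarcomere and fusion genes climb from band to band, while S phase genes and collagens are lowest in the 894 cells at 10 or more.

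Among cells in the same state, where it held more than 2 Cdkn1c-high cells, fewer genes stood 2-fold apart than over all cells. The sarcomere median was nearer 0 there, but not every list's difference was smaller. Among cells with Myog, Mymk or Mymx and neither Mki67 nor Top2a, 569 Cdkn1c-high and 130 Cdkn1c-free cells were compared, and 82 (1.61%) and 176 (3.46%) of 5084 genes reached 2-fold higher and lower. Medians there were 0.76 for sarcomere and -0.86 for collagen genes, nearer 0 than over all cells, and -1.21 for S phase, -0.89 for G2 and M phase and -0.66 for quiescence genes, farther from 0 than the -1.13, -0.55 and -0.63 over all cells. Cdkn1a was at 1021 and 596 CPM, Myog at 4589 and 2569 CPM, Ccnd1 at 32.4 and 100.2 CPM and Pax7 at 8.78 and 41.5 CPM in these cells. Among cells with both kinds of marker, 731 Cdkn1c-high and 1183 Cdkn1c-free, 284 (5.21%) and 220 (4.04%) of 5450 genes passed the same limits, with medians of 2.27 for sarcomere, -0.75 for S phase and -0.052 for G2 and M phase genes. Within that state Cdkn1a was at 740.5 and 117 CPM and Cdk6 at 13.5 and 51.7 CPM. The 22 Cdkn1c-high cells with a proliferation gene alone, set against 745 Cdkn1c-free cells, gave a sarcomere median of 0.21 and a collagen median of 0.57. There 185 (3.26%) and 197 (3.47%) of 5678 genes passed the limits. Cells with neither kind of marker numbered 2 Cdkn1c-high and 44 Cdkn1c-free. In that state 1456 (22.7%) and 1532 (23.9%) of 6405 genes passed, counts that rest on 2 cells.

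With the degree of differentiation matched, almost all of the differences were under 2-fold. The degree was the share of a cell's UMIs from 64 genes, the sarcomere and fusion lists and Myog, which had medians of 313 per 10000 in Cdkn1c-high and 55.1 per 10000 in Cdkn1c-free cells. Matching, a comparison chosen after the values above had been seen, kept 94 Cdkn1c-free cells, with a median of 312 per 10000. Of 5089 genes, 3 (0.059%) were then at least 2-fold higher in Cdkn1c-high cells: Nrk, at 24.6 and 8.74 CPM, Igfbp5, at 21.4 and 9.77 CPM, and Rgs16, at 36.04 and 18.0 CPM. The 10 genes (0.197%) at least 2-fold lower included Myf5 (14.6 and 35.0 CPM), Prss23 (28.3 and 66.8 CPM) and Col8a1 (15.5 and 33.9 CPM). Genes of the score were not left out of the 5089, and the matching set their summed level, so part of the drop was fixed in advance. The sarcomere list's median was -0.0085, as the matching sets, and those of lists outside the score were -0.10 for S phase, 0.092 for G2 and M phase, -0.20 for collagens and -0.14 for quiescence genes. Cdkn1a was at 842 and 686 CPM. Ccnd1 was at 53.8 and 91.5 CPM, and Meg3 at 235 and 174 CPM. The 94 cells limit the precision, as for Nrk, whose interval was 1.74 to 4.86.

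**Figure D3:**
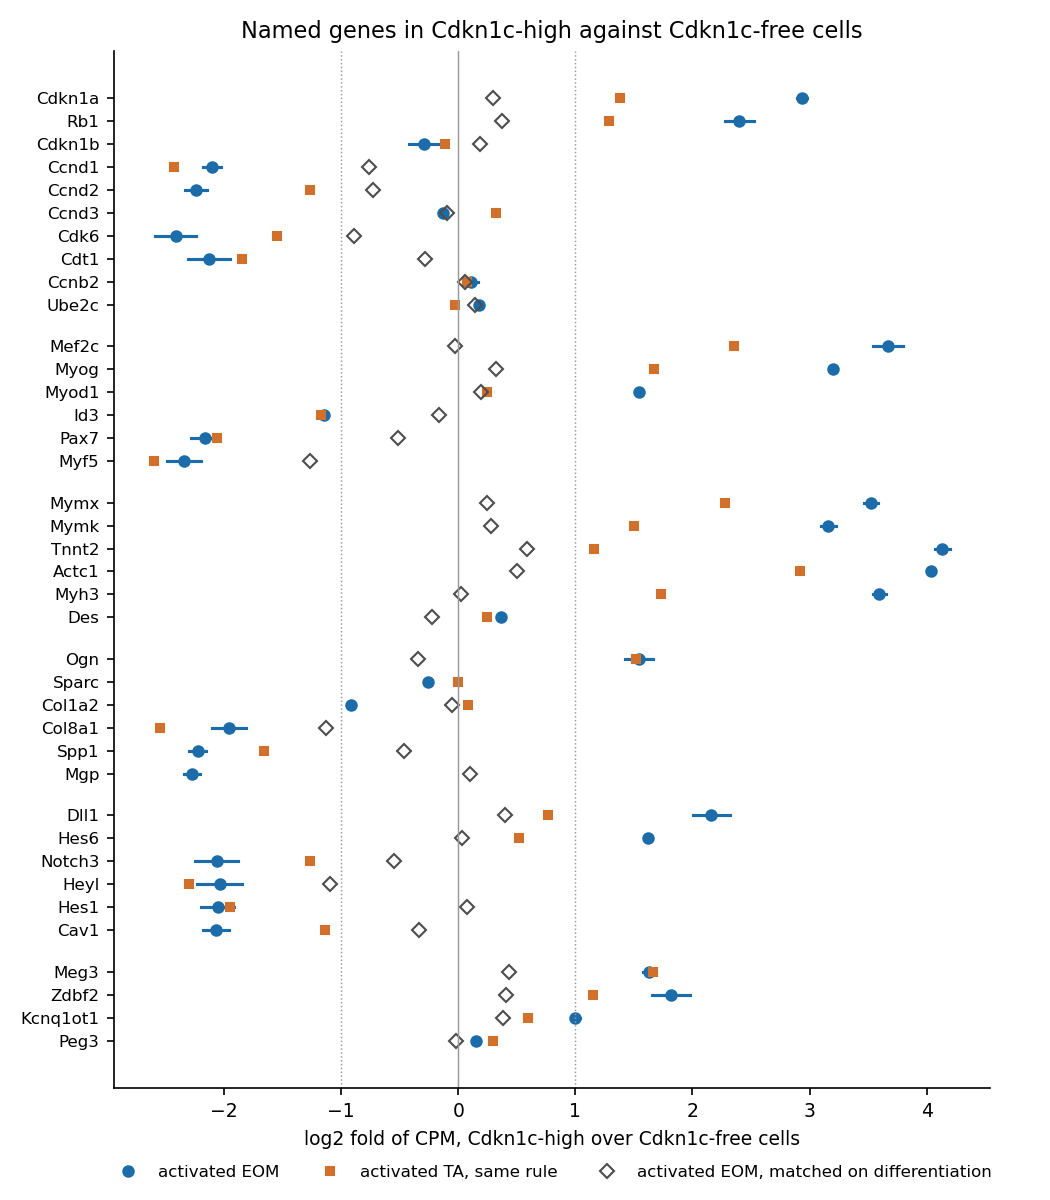
Ratio of summed CPM in Cdkn1c-high over Cdkn1c-free cells (x axis, log2, no pseudocount) for 38 genes in 6 groups: activated EOM (blue circles, with exact 95% counting intervals), activated TA by the same rule (orange squares; Mgp has no UMI in the TA Cdkn1c-high cells and no square) and activated EOM with Cdkn1c-free cells matched on differentiation (open diamonds; none for Sparc). Tnnt2 and Actc1 lie farthest right in activated EOM, and the diamonds lie nearer to 0 than the circles for most genes.

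When all activated EOM cells were ordered by the degree of differentiation and divided into 10 bins of equal size, Cdkn1c-high cells were 1.77% of the lowest bin (0.852 to 3.23), 8.14% of the sixth, 31.0% of the seventh and 67.1% of the highest (63.0 to 70.9). Activated TA cells within the same limits of this degree were Cdkn1c-high in 0 of 52 cells (exact upper bound 6.85%), 0 of 627 cells (0.587%), 0.593% and 3.69% (2.20 to 5.77) of cells. The same limits did not give the same Myog level in both muscles. Myog was at 619 CPM in EOM and 319 CPM in TA in the sixth bin, and at 1760 and 942 CPM in the seventh. In the eighth bin it was at 3175 and 2100 CPM, and in the ninth at 4486 and 3681 CPM. In the highest bin the Cdkn1c level was 1415 CPM in EOM and 90.7 CPM in TA, whereas Cdkn1a was at 1304 and 1199 CPM, Myog at 4993 and 4781 CPM and Pax7 at 4.22 and 4.95 CPM. In the highest bin of EOM 40 of 565 cells had no Cdkn1c UMI.

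**Figure D4:**
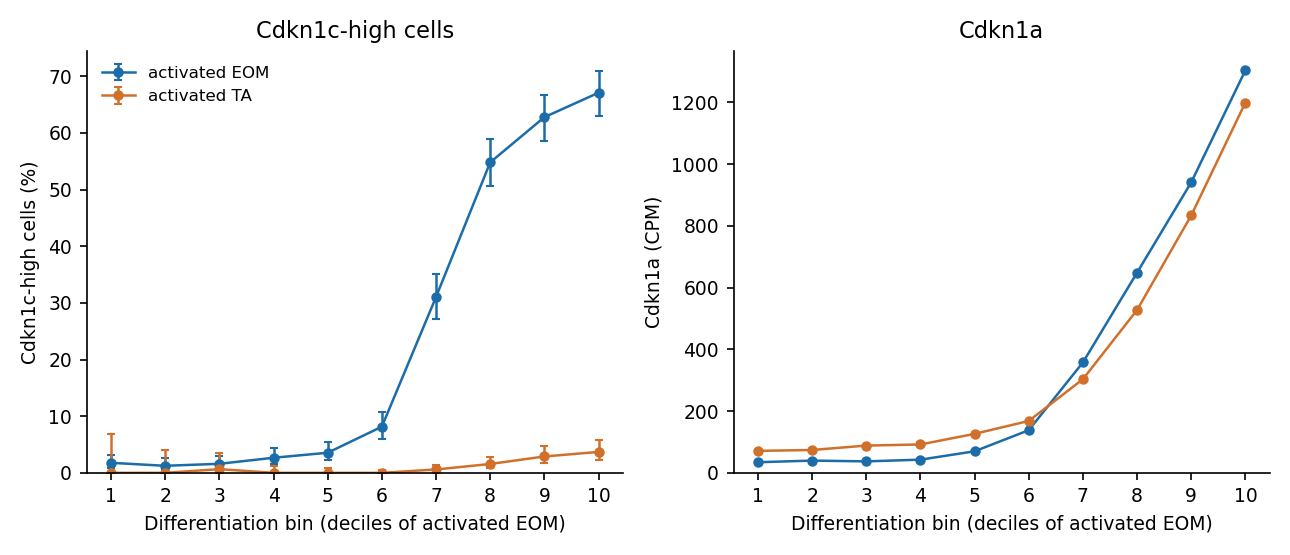
Share of Cdkn1c-high cells (left, %, with exact binomial 95% intervals) and summed Cdkn1a level (right, CPM) in 10 bins of the differentiation score, set as deciles of activated EOM cells, in activated EOM (blue) and activated TA (orange). The Cdkn1c-high share reaches 67.1% in EOM and 3.69% in TA in the highest bin, while Cdkn1a climbs in both libraries.

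The same division of activated TA cells set 51 Cdkn1c-high against 3202 Cdkn1c-free cells. Ratios in TA had the same direction as in EOM for nearly all genes that differed in EOM and could be compared. The genes compared were fewer than the 379 higher and 408 lower ones counted in EOM. Of 5364 genes counted in TA, 189 (3.52%) were 2-fold or more higher in its Cdkn1c-high cells and 223 (4.16%) lower. Of the 336 genes at least 2-fold higher in EOM that could be compared, 335 were above 1 in TA and 171 at least 2-fold higher; of 276 lower genes, 274 were below 1 and 152 at least 2-fold lower. Over 5122 genes the log2 ratios of the muscles correlated with Pearson's r of 0.870 and Spearman's rho of 0.818, a description across genes, which are not replicates. Myog was at 3951 and 1237 CPM in TA and Tnnt2 at 1230 and 550.1 CPM, smaller folds than in EOM. The TA Cdkn1c-free cells held Myog, Mymk or Mymx in 86.1% of cells, against 62.5% in EOM. List medians in TA were 1.32 for sarcomere, -0.91 for S phase, -0.41 for collagen and -0.36 for quiescence genes. Col1a2 was at 82.5 and 77.9 CPM in the TA sets. With 1 library per muscle, a difference between the muscles cannot be told apart from one between the libraries.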

How the data were processed

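Polyadenylated RNA of single cells was counted on the 10x Genomics platform. Raw UMI counts per gene and barcode were deposited by the authors. Cell Ranger 3.0.2 and the mm10 build are named in the submitters' processing notes. The annotation release, the calling of cells and the strand setting are not stated there, and so are unknown here. The files list 31055 features.

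UMIs were summed over each set of cells and scaled to CPM. Folds have exact 95% intervals for a ratio of Poisson rates, and shares of cells, taken after thinning every cell to 10000 UMIs, have Clopper-Pearson intervals. Genes were counted at 2-fold among those with 20 CPM or more in either set; list medians used members with 5 CPM or more and a pseudocount of 1 CPM. For 0 UMIs of a gene, the level that 3 counts of the total give is the limit; a share of 0 cells has its exact upper bound. Scrublet, run through scanpy 1.11.5, called 1 doublet automatically and so did not work; removing the 462 highest scores by rank was an alternative, and no doublet was removed otherwise. Named genes were the 15 largest and 15 smallest folds among genes with at least 50 CPM and 50 UMIs in the higher set (without sex-linked, mitochondrial, ribosomal and unnamed models), all measured CDK inhibitors, G1 cyclins, myogenic regulators and fusion genes, and the 4 largest and smallest folds of the other lists. Genes of the cell states, Sparc, H19, Rrm2, Ttn, EGFP and the genes left after matching were named besides. Some genes that meet these rules are not reported here. The alternatives covered scaling (TMM in edgeR 4.0.16 and median-of-ratios), filters, thresholds, depth, doublets and cell states. Matching on differentiation and the restriction to non-cycling differentiating cells were added after the data were seen. The cells, gene lists and markers were chosen with earlier results of these data known. The summing and counting steps were tested on simulated data. Computation used Python 3.11.15, numpy 2.4.6, scipy 1.17.1 and pandas 2.3.3. Promoters come from RefSeq (GRCm38.p6) and gene positions from GENCODE vM21. Cdkn1c was left out of every count of genes.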

Additional observations from a re-analysis of the deposited data

How the results depend on the processing

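No paired analysis was possible because each muscle and state had 1 library and the labels give no replicate numbers. Of the 93 named genes at least 2-fold apart, all kept their direction under the scalings, thresholds, depth and mitochondrial limits, thinning, doublet removal and depth matching that were tried, 52 did in cells without Myog, Mymk or Mymx, and 73 with Cdkn1c-free cells matched on differentiation. The setting without Myog, Mymk or Mymx held 24 Cdkn1c-high and 789 Cdkn1c-free cells, and the matched one 94 Cdkn1c-free cells.

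Counts of genes at least 2-fold higher and lower (379 and 408) became 1430 and 1936 with no CPM filter, 215 and 156 at 50 CPM, and 611 and 953 at 1.5-fold. The count of lower genes was 263 with Cdkn1c at 2 or more per 10000 and 199 at a 5% mitochondrial limit, which left 58 Cdkn1c-high and 266 Cdkn1c-free cells; higher genes numbered 189 in cells without Mki67 or Top2a. In cells without Myog, Mymk or Mymx the counts were 142 and 180, with matched differentiation 3 and 10, and in non-cycling differentiating cells 82 and 176.

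The share of Cdkn1c-high cells with Myog, Mymk or Mymx was 99.2% at a Cdkn1c limit of 10 per 10000, 95.2% at 2, 93.1% at 5% mitochondrial UMIs and 99.6% in cells without Mki67 or Top2a. In Cdkn1c-free cells it was 60.3% at 20000 UMIs, 59.4% at the 5% limit, 74.7% in cells without Mki67 or Top2a and 93.6% after matching on differentiation. Myog, Mymk and Mymx are part of the matched score. The share with Mki67 or Top2a in Cdkn1c-high cells was 61.8% at a Cdkn1c limit of 2, 82.8% at the 5% limit and 91.7% in cells without Myog, Mymk or Mymx. In Cdkn1c-free cells it was 94.2% at 20000 UMIs, 95.5% at the 5% limit, 90.1% with and 94.4% without a differentiation gene, 90.3% matched on depth and 55.3% matched on differentiation.

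List medians at the 5% limit were -0.57 for collagens, and in cells without Mki67 or Top2a 1.13 for sarcomere genes. In cells without Myog, Mymk or Mymx they were -0.23 for S phase, 0.13 for G2 and M phase, 0.18 for sarcomere, 0.51 for collagen, 0.32 for glycoprotein, 0.41 for quiescence and 0.13 for matrix enzyme genes. Matched on differentiation, they were -0.10 for S phase, 0.092 for G2 and M phase, -0.0085 for sarcomere and -0.20 for collagen genes, and in non-cycling differentiating cells 0.76 for sarcomere and -0.86 for collagen genes.

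Log2 ratios that changed sign in cells without Myog, Mymk or Mymx were Actc1 -0.29, Myl1 -0.34, Smim5 -0.50, Arpp21 -1.07, Lmod2 -0.56, Palmd -0.75, Ckm -0.95, Mybph -0.72, Traf3ip3 -0.75, Mymk -0.63, Cdkn1a -1.004, Tmem182 -1.67, Dll1 -1.70, Mef2a -0.21, Hes6 -0.57, Myod1 -0.44, E2f2 -0.092, Tpm2 -0.084, Adam19 -0.43, Ttk 0.21, Id3 0.092, Mmp14 0.61, Bmp1 0.12, Smad7 0.014, Col6a1 1.33, Prrx1 0.31, Fosb 0.35, Col12a1 0.51, Hey1 0.75, Heyl 0.43, Ier3 1.03, Notch3 0.53, Hes1 0.46, Cav1 0.043, Ier2 0.25, Pax7 0.62, Col5a3 0.43, Mgp 0.85, Pdgfrb 0.69, Tm4sf1 0.015, Cdkn2b 0.20. Those that changed sign with matched differentiation were Mef2c -0.024, Tnni1 -0.043, Lmod2 -0.059, Ckm -0.15, Tmem182 -0.11, Ogn -0.34, Mef2d -0.18, Tgfb3 -0.10, Ttk 0.039, Aurkb 0.24, Ccne1 0.016, Bmp1 0.19, Col6a1 0.75, Irs2 0.47, Hey1 0.30, Cdc6 0.26, Hes1 0.073, Mgp 0.099, Cdkn2b 0.081, Msc 0.058. Genes of the sarcomere and fusion lists and Myog made up the matched score, so the matching set their summed level. Lacking Mymk was part of the choice of cells in the first setting. There Smim5, Arpp21, Lmod2, Palmd, Ckm, Traf3ip3, Tmem182 and Dll1 had no UMI in the 24 Cdkn1c-high cells. Many other intervals there spanned both signs, as for Actc1 (-1.11 to 0.41). Wholly negative intervals were those of Cdkn1a (-2.26 to -0.059), Hes6 (-1.01 to -0.16) and Myod1 (-0.811 to -0.097). Wholly positive ones were those of Pax7 (0.30 to 0.93), Mgp (0.693 to 0.998), Col6a1 (0.934 to 1.74), Ier3, Hey1, Mmp14 and Pdgfrb. The cause of the other changes was not tested.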

Other observations

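Outside the lists, secretin, from Sct, a gut hormone gene, was at 325 CPM in Cdkn1c-high and 58.0 CPM in Cdkn1c-free cells, and was found in 64.0% and 24.2% of cells thinned to 10000 UMIs. Bex1 was at 629.9 and 117 CPM, with per-cell medians of 5.11 and 0.407 UMIs per 10000. Annexin Anxa1 was at 199 and 665 CPM and the actin-binding Tagln2 at 117 and 657 CPM, with medians of 0 and 6.44 UMIs per 10000. These genes were chosen after their values were seen. TdTomato had 0 UMIs in all 4 libraries.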
